A study of Mus musculus with 142 samples.

Results

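The regions described here are the 50 kb windows of the mouse autosomes that replicated earlier on the CAST homolog than on the musculus-129 homolog of hybrid mESCs. They were selected on the measured values themselves. In each Repli-seq library the log2(E/L) of the CAST homolog was subtracted from that of the musculus-129 homolog, and a window was taken when this difference averaged -0.5 or less over the libraries with a value on both homologs (at least 40). The interval from 46.5 to 50.5 Mb of chromosome 16, which surrounds the deletions made in the study, was left out. The rule found 1341 windows (67.0 Mb) of the 41973 that could be tested, or 3.19%, out of 49264 windows in all. The difference and its sign are therefore a description of how the windows were chosen, and no test of them is given.

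The cells were F121-9, an mESC line derived from an F1 cross of musculus-129 with castaneus (CAST) mice and grown in 2i + LIF. Values were at hand for 66 libraries from 53 clones of 26 cell lines, and every line carries CRISPR-made deletions in the Dppa domain of chromosome 16, so no unedited culture is among them. The lines are named by what was deleted from the early replication control elements (ERCEs) A, B and C of that domain or from the upstream site Z. OSN stands for sites bound by Oct4, Sox2 and Nanog, TSS for a transcription start site, and the number for the sites removed. The 26 lines were A.B.COSN123, A.BOSN1.COSN123, A.BOSN12.BTSS.COSN123, A.BOSN12.COSN123, A.COSN12, A.COSN123, AOSN.B.COSN123, AOSN.BOSN12.COSN123, AOSN.COSN12, AOSN.COSN123, ATSS.BTSS.CTSS, BOSN1.COSN123, BOSN12.COSN123, BTSS, BTSS.CTSS, CL20k, COSN1, COSN1.2.8k, COSN12, COSN123, CR11.8k, CR13.4k, CR14.6k, CTSS, Z.AOSN.COSN123 and Z.B.C. CL20k removes the left part of ERCE C, and the CR deletions remove stretches of its right part. The deletion lay on the musculus-129 homolog except in CR11.8k clone 50 and CTSS clone C4, where it was on CAST, and some lines carried a further deletion of B or of a TSS on the CAST homolog. Clones were often made from one another, for example COSN123 from COSN1, so they are not fully independent. All come from 1 hybrid line, so the strain of a homolog and the parent it came from cannot be told apart.

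Each library gave a profile of both homologs with values in 73.8% to 93.8% of windows, and the files hold ratios, so the read depth is unknown. The difference between homologs correlated across windows between any pair of libraries with a median r of 0.62 (from 0.37 to 0.83). Its median over the genome lay between -0.11 and 0.02 in every library. A chromosome was without values on 1 homolog in 13 libraries of 10 clones, and n below is smaller for runs on these chromosomes (11, 13, 14 and 16).

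E/L Repli-seq reads the order in which DNA is copied. Cells labelled with BrdU for 2 h are sorted into early and late S phase, and log2(E/L) is positive where replication is early and negative where it is late. Replication timing (RT) is laid out in domains: initiation zones replicate first and appear as local maxima of the RT curve, late domains appear as troughs, and transition regions of steep slope lie between them. Early replication generally goes with open, transcribed chromatin and late replication with compact chromatin at the nuclear periphery. In hybrid cells SNPs tell the homologs apart, so that each library compares both homologs of the same cells.

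Sequences from the windows with the largest difference are shown first, because the elements studied at the Dppa domain are Oct4, Sox2 and Nanog sites. A composite of a Sox2-like part (CATTGT), 1 free base and an Oct4-like part (ATGCAAA) was searched on both strands of the reference (RefSeq GRCm38.p6, whose chromosome lengths equal those of the table's mm10 windows). It occurred 6 times in the 1341 windows, so that 0.447% of them held a match, against 0.303% of all windows tested (128 matches) and 0.28% of the windows earlier on musculus-129 (3 matches). The 3 matches within the 15 largest runs of adjacent windows are printed with 8 flanking bases on each side, on the strand of the match, with the composite in capitals. The first lies in the run around Asph and Gdf6 and the other two in the run around Trpc7, and none is inside a protein-coding gene.
chr4:9951007-9951036, minus strand: tatgagaaCATTGTCATGCAAAttcctttc
chr13:57018145-57018174, plus strand: gaacaacaCATTGTCATGCAAAtgggcatg
chr13:57362765-57362794, minus strand: aagggaagCATTGTAATGCAAAtgcctcgt

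The windows that hold them had a mean difference of -1.11, -1.49 and -0.73, respectively. The shorter octamer ATGCAAAT, which overlaps the Oct4-like part, had a median of 5 matches per window earlier on CAST and of 4 per window over all windows tested. A match is a stretch of letters in the reference, which is neither of the homologs measured here, and no binding was measured.

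Promoters of genes that start in the largest runs are shown next, to let their base composition be compared. Of the 40 genes that the naming rule picked in the 15 largest runs, 26 have a RefSeq promoter that starts in a member window. Promoters of Mad2l1 (-1.19), Capn13 (-1.13), Lrrfip1 (-1.09), Lclat1 (-1.02) and Vmn1r32 (-1.01) also lay in windows beyond 1 log2 unit and are not printed. The 250 bases before the annotated start are printed for 4 others beyond that difference, which no rule picked. They are on the strand of the gene, with every GC box (GGGCGG or its complement) in capitals.
Trpc7, chr13:56895790-56896039, minus strand: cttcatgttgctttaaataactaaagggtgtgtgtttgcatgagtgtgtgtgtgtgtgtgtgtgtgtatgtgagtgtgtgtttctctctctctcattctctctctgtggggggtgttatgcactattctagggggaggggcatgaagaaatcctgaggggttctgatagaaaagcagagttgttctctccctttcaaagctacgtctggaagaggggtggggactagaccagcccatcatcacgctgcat
Col6a3, chr1:90843972-90844221, minus strand: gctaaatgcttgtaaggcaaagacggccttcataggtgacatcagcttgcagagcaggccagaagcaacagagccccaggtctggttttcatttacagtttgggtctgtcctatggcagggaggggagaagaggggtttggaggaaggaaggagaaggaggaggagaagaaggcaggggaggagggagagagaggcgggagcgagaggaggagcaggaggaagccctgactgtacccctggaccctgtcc
Rasa1, chr13:85289487-85289736, minus strand: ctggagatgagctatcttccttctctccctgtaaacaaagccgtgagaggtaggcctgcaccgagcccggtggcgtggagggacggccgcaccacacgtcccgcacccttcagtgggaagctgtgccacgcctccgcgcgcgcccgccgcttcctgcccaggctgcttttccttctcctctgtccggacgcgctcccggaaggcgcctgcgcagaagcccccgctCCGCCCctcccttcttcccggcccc
Map3k4, chr17:12318661-12318910, minus strand: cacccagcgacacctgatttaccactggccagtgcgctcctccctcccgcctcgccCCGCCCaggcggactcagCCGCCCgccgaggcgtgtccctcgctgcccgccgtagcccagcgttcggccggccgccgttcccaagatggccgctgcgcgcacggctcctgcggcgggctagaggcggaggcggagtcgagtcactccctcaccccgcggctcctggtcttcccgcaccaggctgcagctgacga

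These 4 differ widely in composition, but as no rule picked them they do not stand for the other promoters. The Trpc7 and Col6a3 promoters held 2 and 3 CpG dinucleotides and no GC box, whereas those of Rasa1 and Map3k4 held 24 and 31 CpGs and 1 and 2 GC boxes. The windows around the 4 starts had a difference between -1.10 (Map3k4) and -1.47 (Trpc7). Over all 648 promoters that start in windows earlier on CAST, 21.6% held a GC box, compared with 34.1% of the 28635 promoters in all windows tested and 25.7% of the 506 in windows earlier on musculus-129. The CCAAT box was found in 35.5% of the promoters in windows earlier on CAST and in 33.1% of those in all windows tested, and the octamer in 1.70% and 1.58%.

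The windows earlier on CAST were spread over all 19 autosomes. Chromosome 7 held the most (110), followed by chromosomes 13 (107), 10 (105) and 17 (104), and chromosome 19 the fewest (29). As a share of the windows tested, chromosome 17 stood highest at 6.60%, then chromosome 13 at 5.04% and chromosome 7 at 4.51%, and chromosome 14 lowest at 1.80%. The mirror set, windows with a mean of 0.5 or more (earlier on musculus-129), counted 1073 and was distributed otherwise. On chromosome 17 it made up 2.22%. Chromosome 4 held 31 windows earlier on musculus-129 and 73 earlier on CAST. On chromosome 1 it made up 4.99%, where 2.84% were earlier on CAST.

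**Figure D1:**
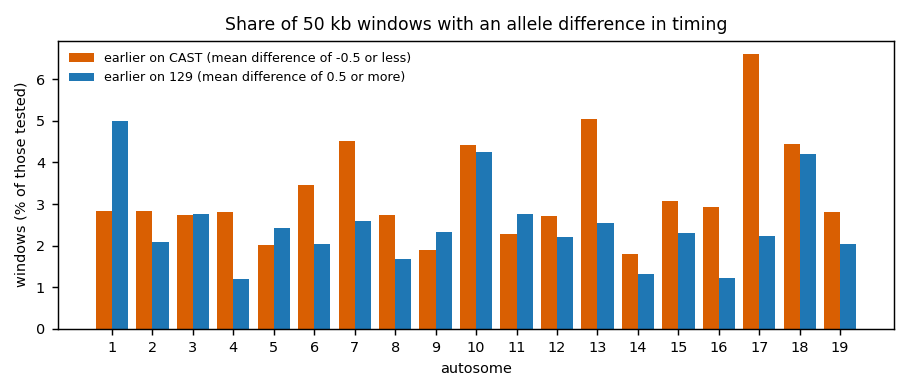
Bars give, for each of the 19 autosomes, the windows earlier on CAST (orange) and earlier on musculus-129 (blue) as a percentage of the 50 kb windows tested. Chromosome 17 has the highest share earlier on CAST (6.60%) and chromosome 1 the highest share earlier on musculus-129 (4.99%).

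Adjacent windows joined into 212 runs on 19 autosomes. A run had a median of 5 windows (250 kb), the lower quartile was 3, 30 were single windows and the longest spanned 24 windows (1200 kb). The 43 runs of 10 or more windows held 584 windows, or 43.5% of the set. The authors smoothed the profiles over 300 kb, so neighbouring windows share data and a run is not a set of independent measurements. Values near the limit were dense. The window just inside it had a mean of -0.5001 and the window just outside -0.4999, and 293 windows lay within 0.05 on the inner side and 350 on the outer. Runs of both directions were seldom close, with a median of 5.75 Mb from a run earlier on CAST to the nearest run earlier on musculus-129, although 31 lay within 1 Mb and the smallest gap was 200.0 kb.

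Over the 1341 windows the median difference was -0.64, with quartiles of -0.78 and -0.56 and a lowest mean of -1.59. The musculus-129 homolog had a median log2(E/L) of -0.53 and the CAST homolog of 0.17. In 562 windows (41.9%) the musculus-129 homolog was late and the CAST homolog early, on either side of 0. In 525 windows (39.1%) both homologs were late, with the musculus-129 homolog later, and in 254 (18.9%) both were early. Among all windows tested, which include the set, 3.27% had a late musculus-129 and an early CAST homolog. The rule asks for an earlier CAST homolog and so favours this order, and the contrast describes the set only. The mean of both homologs had quartiles of -0.62 and 0.24 in the set and of -0.92 and 1.03 over all windows tested. The windows earlier on CAST thus lay nearer the middle of the timing range, but the rule itself favours this. Near either end of the scale there is little room for a difference of 0.5 between homologs. The windows earlier on musculus-129 lay in the same range, with quartiles of -0.64 and 0.24. The RT curve was steeper at the windows earlier on CAST than over all windows, with a median absolute slope of 0.084 against 0.055 log2 units per window, and it was 0.088 at the windows earlier on musculus-129.

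**Figure D2:**
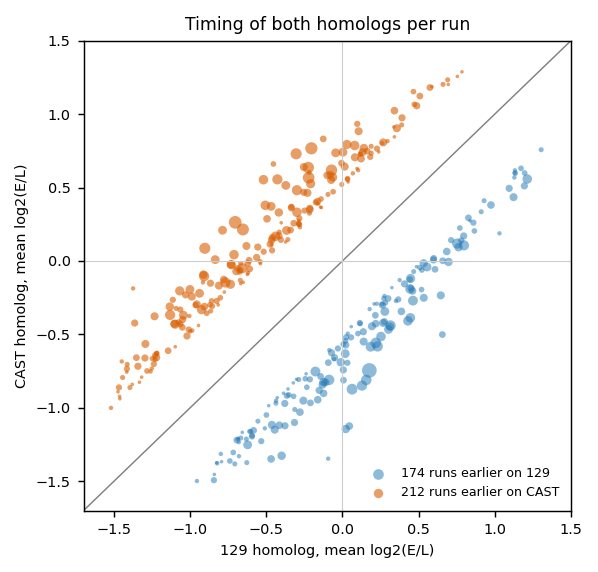
Each point is a run of adjacent windows, placed by its mean log2(E/L) on the musculus-129 homolog (x axis) and on the CAST homolog (y axis), with area growing with the number of windows. The 212 runs earlier on CAST (orange) lie above the diagonal of equal timing and the 174 runs earlier on musculus-129 (blue) below it, and both spread from late to early.

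The shape of the RT curves was described as well. Choosing runs by their difference favours a local maximum on the earlier homolog, and the share in stretches not so chosen was not computed. A run was said to hold a local maximum on a homolog when 1 of its windows exceeded all others within 250 kb on the mean curve. Of the 212 runs, 57 held a local maximum on CAST only, 40 on both homologs, 1 on musculus-129 only and 114 on neither. In the mirror set, 48 of 174 runs held one on musculus-129 only, 33 on both and 0 on CAST only. Among the 43 long runs earlier on CAST, 21 held a local maximum on both homologs and 7 on CAST only.

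Windows earlier on CAST were poorer in genes than the genome at large. Protein-coding genes covered a median of 0.42% of a window, against 33.6% over all windows tested and 24.1% in the windows earlier on musculus-129. The means lay closer together, at 34.5%, 43.7% and 41.3%, respectively. No protein-coding gene overlapped 669 of the windows (49.9%), compared with 39.2% of all windows tested and 40.5% of those earlier on musculus-129. In all, 353 protein-coding genes started in the set, or 5.26 per Mb against 8.94 per Mb over all windows. The windows earlier on musculus-129 lay between, at 6.69 per Mb, so fewer starts than in the genome at large were common to both sets. Base composition differed little, with a median GC content of 41.0% against 41.8%, and repeats (soft-masked bases) covered a median of 31.3% against 30.1%. These are medians over windows that share neighbours, and no test was made of them.

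The largest run by summed difference lay at chr4:9300001-10500000 and held 24 windows. It covers Asph, which encodes a hydroxylase of aspartyl and asparaginyl residues, and Gdf6, a growth factor of the BMP family, in whole, and 83.2% of Clvs1, a gene for a protein of clathrin-coated vesicles. On the musculus-129 homolog the run's log2(E/L) was -0.95 in the lowest clone, -0.74 in the median and -0.41 in the highest of 53. On the CAST homolog the values were -0.12, 0.24 and 0.66. No clone's musculus-129 value reached the lowest CAST value. The difference was -0.97 ± 0.12 (SD, n = 53 clones). It reached -1.43 in the window at 9600001 to 9650000 bp, inside Asph, where musculus-129 was at -0.48 and CAST at 0.95. Both homologs had a local maximum in the run.

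The second run, at chr17:11450001-12550000, held 22 windows. It contains Agpat4, an acyltransferase of phospholipid synthesis, and Map3k4, a kinase of the stress-activated MAP kinase cascades. Its musculus-129 homolog ranged from -0.69 over a median of -0.19 to 0.54, and its CAST homolog from 0.53 over 0.77 to 0.99. The ranges touched only through the highest musculus-129 clone. The difference was -0.97 ± 0.17 (SD, n = 53 clones). CAST was at 1.18 in the window where Agpat4 starts and at 1.24 where Map3k4 starts, against 0.21 and 0.14 on musculus-129. Slc22a3, an organic cation transporter gene known to be imprinted in the placenta, starts in the same run with 0.56 on CAST and -0.13 on musculus-129, and strain and parent of origin cannot be told apart in this single cross.

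The next run, at chr13:56650001-57550000, held 18 windows and the largest single difference. It contains Trpc7, a gene for a calcium-permeable TRP channel, Smad5, a transducer of BMP signals, and 26.4% of Spock1, which encodes a proteoglycan. Values were at hand for 51 clones, since 2 clones lack chromosome 13 on 1 homolog. The musculus-129 homolog ranged from -0.87 over -0.28 to 0.08 and the CAST homolog from 0.31 over 0.72 to 1.10, with no overlap. The difference was -1.05 ± 0.15 (SD, n = 51 clones). In its window at 56950001 to 57000000 bp, which holds no annotated gene and lies 54.0 kb from Trpc7, the mean difference was -1.59 ± 0.23 (SD, n = 62 libraries), from -2.32 to -0.99. The CAST homolog there was never below 0.43 and the musculus-129 homolog never above -0.13.

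Next in rank came the runs at chr17:72550001-73600000 and chr13:84700001-85600000. The former holds Lclat1, which remodels the acyl chains of cardiolipin, Capn13, a calpain protease gene, and the end of Galnt14, a glycosyltransferase gene. Its difference was -0.87 ± 0.22 (SD, n = 53 clones), and here the clones overlapped between homologs, since musculus-129 reached -0.20 and CAST went down to -0.25. The latter holds Rasa1, a GTPase-activating protein of Ras, and Ccnh, the cyclin of the CDK-activating kinase. There the musculus-129 homolog ranged from -1.40 to -0.51 and the CAST homolog from -0.42 to 0.56, without overlap, and the difference was -1.01 ± 0.20 (SD, n = 51 clones). The sixth run, chr1:90350001-91300000, carries 10 protein-coding gene starts, among them Lrrfip1, Col6a3, a chain of collagen VI, and Ramp1, a partner of the calcitonin receptor-like receptor. In it the CAST homolog stayed early across the run (0.64) and had a local maximum there, and the musculus-129 homolog dipped to -0.66 in the window where Col6a3 starts. The difference was -0.86 ± 0.12 (SD, n = 53 clones).

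**Figure D3:**
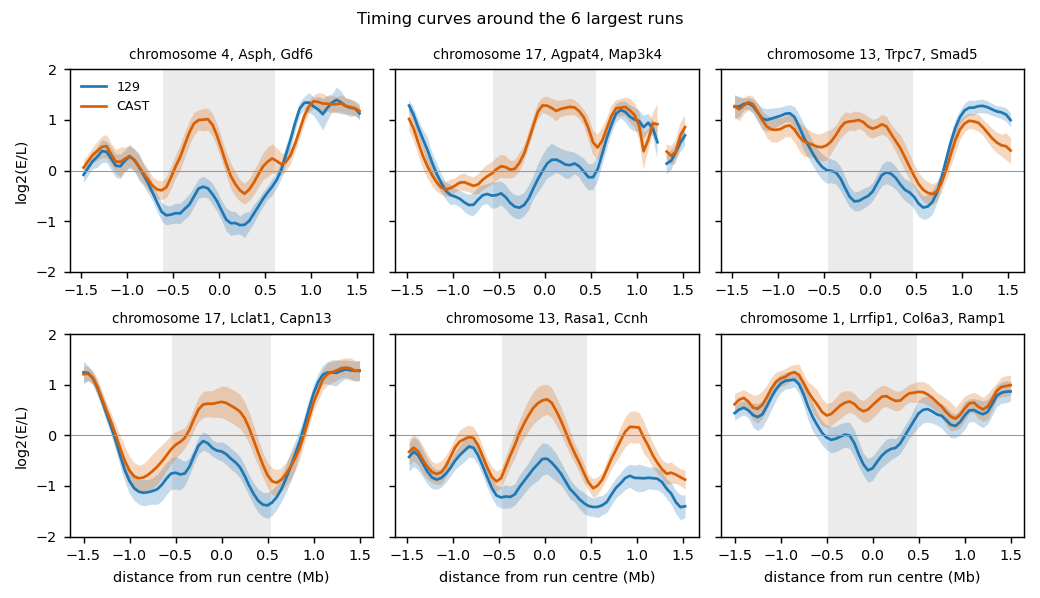
Curves give the mean log2(E/L) over clones of the musculus-129 (blue) and CAST (orange) homologs against the distance from the centre of each of the 6 largest runs, in Mb, with bands of 1 SD over clones and the run shaded grey. The homologs part within the run and meet again on at least 1 side, and in the first panel CAST is at 0.95 and musculus-129 at -0.48 in the window of the largest difference.

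The next 9 runs had between 11 and 20 windows. The musculus-129 homolog was late and the CAST homolog early on average in 7 of them. They hold Syne1, the gene for the nuclear envelope protein nesprin-1, with 26.8% of Esr1, the estrogen receptor alpha gene, and 76.8% of Rgs17 on chromosome 10 (difference -0.78 ± 0.10, SD, n = 53 clones). On chromosome 16 they hold D16Ertd472e, Tmprss15, which encodes enteropeptidase, and 61.0% of Btg3, an antiproliferative gene (-0.995 ± 0.17, SD, n = 52 clones). On chromosome 6, Mad2l1, a spindle checkpoint gene, lies with Vmn1r34 and Vmn1r32, pheromone receptor genes, in 1 run (-1.10 ± 0.17, SD, n = 53 clones), and Gm45062, Umad1 and the collagen gene Col28a1 in another (-0.68 ± 0.09, SD, n = 53 clones). The run with Igfbp3 and a part of Igfbp1, both binding proteins of insulin-like growth factors, on chromosome 11 had -0.79 ± 0.14 (SD, n = 47 clones), and 6 clones lack this chromosome on CAST. The run on chromosome 7 with Klhl25 and the start of Agbl1 had -0.87 ± 0.17, and that on chromosome 3 with Ap1ar, Fam241a and 75.9% of Tifa, an adaptor of TRAF signalling, had -0.99 ± 0.20 (SD, n = 53 clones each).

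The clones kept the homologs apart in most of these 7 runs. Over Syne1 the highest musculus-129 clone was at 0.03 and the lowest CAST clone at 0.35, and over Mad2l1 these were at -0.19 and 0.16. In the run with Tmprss15 they were at 0.04 and 0.18, in the run with Agbl1 at -0.06 and 0.06, and in that with Tifa at -0.26 and -0.06. The run with Col28a1 had them at 0.247 and 0.252, next to each other, although its difference had the lowest SD of all 212 runs (0.091). Only the run with Igfbp3 overlapped, with a musculus-129 clone at 0.14 and a CAST clone at -0.05.

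The run with Tmprss15 on chromosome 16 spans a wide range of timing. D16Ertd472e starts where CAST was at 1.15 and musculus-129 at 0.25, and Tmprss15 where both were late, at -0.77 and -1.37. Likewise Klhl25 starts where both homologs were early (1.21 and 0.67) and Agbl1, in the same run, where both were late (-0.11 and -1.08).

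In the remaining 2 of the 15 largest runs both homologs were late on average. The run on chromosome 2 with Slc4a10, a bicarbonate transporter gene, and the peptidase genes Dpp4 and Fap stood at -0.91 on musculus-129 and -0.10 on CAST. Its clones spread widely on either homolog (SD 0.32 and 0.41), but their difference did so less (SD 0.17, n = 53 clones). The run at chr1:67500001-68250000, in which 20.2% of Erbb4, a receptor tyrosine kinase gene, is the only protein-coding annotation, stood at -1.13 and -0.37. Its difference was -0.76 ± 0.21 (SD, n = 53 clones), and the clones of both homologs overlapped.

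**Figure D4:**
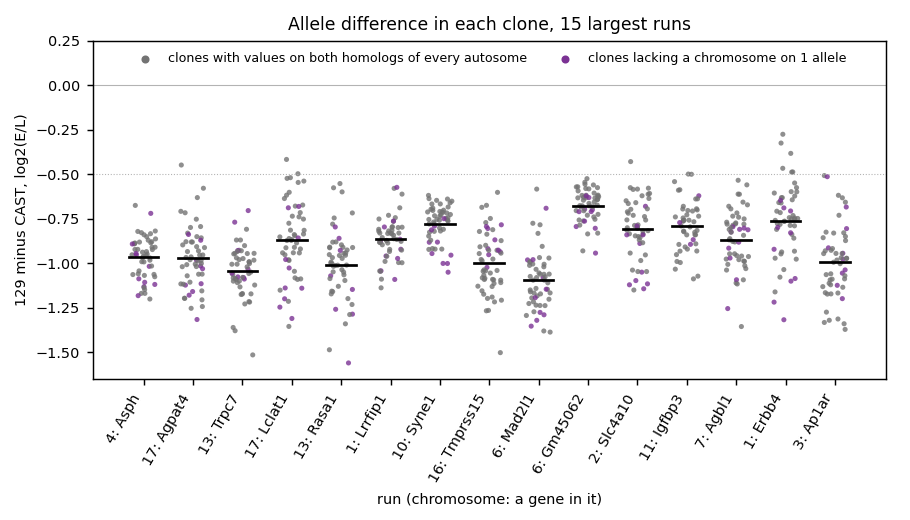
Each point is the mean difference (musculus-129 minus CAST, log2(E/L)) of 1 clone over 1 of the 15 largest runs, named by chromosome and by a gene that starts in it (Erbb4, which starts outside, for 1 run), with bars at the mean and clones lacking a chromosome on 1 allele in purple. The points lie below 0 in all 15 runs, and most lie below the dotted line at -0.5.

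Of the 121 windows with a mean of -1 or less, 82 were in the 15 largest runs, which hold 258 windows or 19.2% of the set. Those runs were ranked by their summed difference, which by itself gathers such windows, so this count describes the ranking only. The 121 windows were spread over 25 runs of 14 chromosomes. In 96 of the 121 the musculus-129 homolog was late and the CAST homolog early, which a difference of this size favours.

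Gene groups were counted by the window in which a gene starts. Of all 18771 protein-coding genes that start in a window tested, 353 (1.88%) start in a window earlier on CAST. Of the 21 core pluripotency genes and the 21 lineage transcription factors tested, 0 did so, and the same held for 39 Hox genes, 43 protocadherins and 43 defensins. The only 1 of 46 imprinted genes was Slc22a3. Olfactory receptor genes gave 10 of 835, all from 1 cluster on chromosome 7, namely Olfr504, Olfr508, Olfr507, Olfr506, Olfr502, Olfr503, Olfr509, Olfr510, Olfr498 and Olfr512. At Olfr504 the difference was -0.70, with musculus-129 at -0.69, and at Olfr512 it was -0.57, with musculus-129 at -0.60. These neighbours share windows, so they are not 10 separate measurements.

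Vomeronasal receptor genes of type 1 gave 3 of 130, the cluster members Vmn1r32, Vmn1r33 and Vmn1r34 beside Mad2l1, and type 2 gave 2 of 70, Vmn2r11 and Vmn2r12 on chromosome 5, in 1 window with a difference of -0.51. Zinc finger genes gave 2 of 328, Zfp958 with 1.19 on CAST and 0.30 on musculus-129, and Zfp386 with -0.14 and -0.68. Genes of 500 kb or more gave 6 of 196 (3.06%), namely Agbl1, Syne1, Nkain2, Pde4b, a cyclic AMP phosphodiesterase gene, Alk, a receptor tyrosine kinase gene, and Ctnnd2, which encodes delta-catenin. Their start windows ranged from -0.97 (Agbl1) to -0.50 (Ctnnd2). At the start of Syne1 CAST was at 0.99 and musculus-129 at 0.13, at that of Pde4b at 0.75 and 0.02, and at that of Alk at -0.15 and -0.78. The counts of these groups are small, and a share near 1.88% says nothing particular of a group.

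The direction was the same in nearly every library. Of the 1341 windows, 1064 (79.3%) were below 0 in every library with both values, where 4.26% of all windows tested were, and 1340 were below 0 in at least 90% of libraries, all but 1. The rule used the same differences, so these counts describe the set only. The exception lay at chr2:81900001-81950000, where 26 of 43 libraries were below 0 and the median was -0.09. There 1 library of CR13.4k clone 2-49 stood at -10.4, and without it the mean was -0.35. By library, at least 96.3% of the windows with values were below 0, and between 54.1% and 94.0% were at -0.5 or less. The mean over the set was -0.70 ± 0.07 (SD, n = 66 libraries), with -0.87 in the lowest library, -0.70 in the median and -0.57 in the highest. The musculus-129 homolog averaged -0.50 ± 0.08 and the CAST homolog 0.20 ± 0.11 over libraries, and no library's musculus-129 mean (highest -0.26) reached any library's CAST mean (lowest 0.0039).

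By run, the SD of the difference between clones had a median of 0.18. The SD of the levels had a median of 0.22 on CAST and 0.20 on musculus-129, and was the larger on musculus-129 in 86 of 212 runs. In 26 runs, 18 of them with 10 or more windows, the highest clone on musculus-129 lay below the lowest clone on CAST. In the mirror set the homologs were likewise apart in 15 of 174 runs, 9 of them with 10 or more windows. Runs were chosen for a large difference, which favours such a gap, and its share over all windows was not computed.

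The rule averaged over libraries and did not use the spread between clones directly, so this spread was tested. The libraries tested are among those whose mean chose the windows, and a window can enter the set through an extreme clone. The comparison with all windows is therefore not independent of the rule. For 11 clones the labels give repeat libraries (24 libraries), and a moderated F test with clone as the factor asked in each window whether clones differed by more than their repeats. Of the 1297 windows earlier on CAST that could be fitted, 56 (4.32%) had an adjusted p of 0.05 or less, against 1.06% of all 39800 windows tested. The share was larger still among windows earlier on musculus-129 (81 of 1059). The median SD was 0.11 between clones and 0.17 within clones in the set. Over the 39707 fitted windows that also met the rule's limits on libraries and interval, these were 0.063 and 0.17. For most clones nothing says that the repeats were separate cultures, so the test measures the spread between these libraries, which may be technical.

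The 56 windows were not a stable list, since 1 clone at a time decided much of it. Without A.BOSN12.BTSS.COSN123 clone C4, 12 of 1262 windows passed (0.951%), against 0.412% of all windows fitted. Without CTSS clone C12, 121 of 1265 did (9.57%), against 2.13% of all windows, so the count over the genome moved the same way. Leaving out COSN123 clone A10 gave 107 of 1118, AOSN.B.COSN123 clone 5A.2 91 of 1265, A.B.COSN123 clone 5A.7 37 of 1287, AOSN.B.COSN123 clone 1A.4 31 of 1264 and AOSN.B.COSN123 clone 3C.4 31 of 1276.

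The 56 windows formed 31 stretches in 25 runs. The lowest adjusted p by the moderated F test, 2.27e-05, was found in a stretch of 4 windows at chr2:122650001-122850000 (highest of the 4, 0.0071) over Sqor, Slc30a4, a zinc transporter gene, and Bloc1s6, a gene of lysosome-related organelle biogenesis. There both libraries of A.BOSN12.BTSS.COSN123 clone C4 were at -1.83 and -1.77, and all libraries of the other clones lay between -1.17 (COSN123 clone A10 replicate 1) and -0.41 (A.B.COSN123 clone 2E.1 replicate 1). In that clone the musculus-129 homolog was at -1.31 and -1.43 and the CAST homolog at 0.53 and 0.33. At chr17:68950001-69150000, over Epb41l3, a membrane skeleton gene, the same clone was at -1.31 and -1.56. AOSN.B.COSN123 clone 1A.4 was there at 0.02 and -0.14, so that this clone showed next to no difference (lowest adjusted p = 0.000436, moderated F test). Over Col6a3 at chr1:90750001-90850000 the clones ranged from -1.66 (A.BOSN12.BTSS.COSN123 clone C4) to -0.69 (AOSN.B.COSN123 clone 1A.4), all 11 below -0.5 (lowest adjusted p = 0.00479, moderated F test). In the Trpc7 run 1 window passed, the one in which the gene starts, with clones from -2.01 to -0.88 (adjusted p = 0.027, moderated F test). These 4 places were picked after their values were seen.

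Of the 10 clones without values of a chromosome on 1 homolog, 6 lack chromosome 11 on CAST. The 10 had a mean difference over the set of -0.77 ± 0.07 (SD), and the other 43 clones of -0.69 ± 0.06. Counted only over the chromosomes that have values in every library, the means were -0.76 ± 0.07 and -0.68 ± 0.06. The libraries of the 10 clones also had negative medians over all windows tested, from -0.112 (BOSN1.COSN123 clone E6) to -0.0068 (Z.B.C clone A6). In the other clones these medians ran from -0.029 (Z.AOSN.COSN123 clone A9) to 0.023 (CTSS clone C4 replicate 2). The 2 groups were not compared with library medians subtracted, so the gap between them is not particular to these windows. Whether the loss of a chromosome has a part in the size of the difference was not tested.

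Whether the deletion line went with the size of the difference elsewhere in the genome was asked over the 53 clone means. Lines accounted for 67.6% of the sum of squares between clones (permutation p = 0.0211, 100000 resamples, one-sided towards a larger share). With 26 lines over 53 clones, part of such a share arises even when clones are assigned to lines at random. That chance level was not computed, so the shares given here are not the part of the spread that goes with the deletion. The lines with the largest mean differences were BOSN12.COSN123 (-0.87, 1 clone), AOSN.BOSN12.COSN123 (-0.85, 1 clone) and BOSN1.COSN123 (-0.83 ± 0.01, SD, n = 2 clones), and that with the smallest was ATSS.BTSS.CTSS (-0.61 ± 0.03, SD, n = 3 clones). All clones of BOSN12.COSN123 and BOSN1.COSN123 with values lack chromosome 11 on CAST. Their libraries were also shifted over all windows tested, with a median difference of -0.108 in BOSN12.COSN123 and of -0.110 and -0.112 in BOSN1.COSN123. In AOSN.BOSN12.COSN123 that median was 4.5e-05. The line test was not run with library medians subtracted, so it does not set such a shift apart from a difference in these windows. The share was 64.2% without the 10 clones that lack a chromosome (permutation p = 0.0957), 56.6% with only the lines of 2 or more clones (permutation p = 0.0554) and 60.7% on ranks (permutation p = 0.0849), none of which passed. Over only the chromosomes with values in every library it was 70.3% and passed (permutation p = 0.0097), so whether the lines differ depends on the setting.

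The sizes of both kinds of allele difference were compared between clones. Both means come from the same libraries and share their overall scale, which permuting clones does not remove. The split by missing chromosomes was added after the data were seen. Among the 43 clones with values on both homologs of every autosome, clones with a more negative mean over the windows earlier on CAST had a more positive mean over the windows earlier on musculus-129 (Pearson r = -0.94, Spearman rho = -0.92, two-sided permutation p = 1e-05 for each, the smallest that 100000 resamples can give). Without the 2 clones farthest from the median r was -0.92. The 10 clones that lack a chromosome stood apart, with r = 0.48 (permutation p = 0.159) and rho = 0.58 (permutation p = 0.0894), so a value over all 53 clones mixes both groups. With each library's median difference subtracted, r over all 53 clones was -0.92 and rho -0.90 (permutation p = 1e-05 for each). This was the only relation computed between measures, and its first form was over all 53 clones (r = -0.36, permutation p = 0.00823). The SD of the difference over all windows tested ran from 0.275 (A.COSN123 clone H10) to 0.415 (AOSN.BOSN12.COSN123 clone D6). The correlation was not computed with this scale removed, so no relation beyond it is shown.

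**Figure D5:**
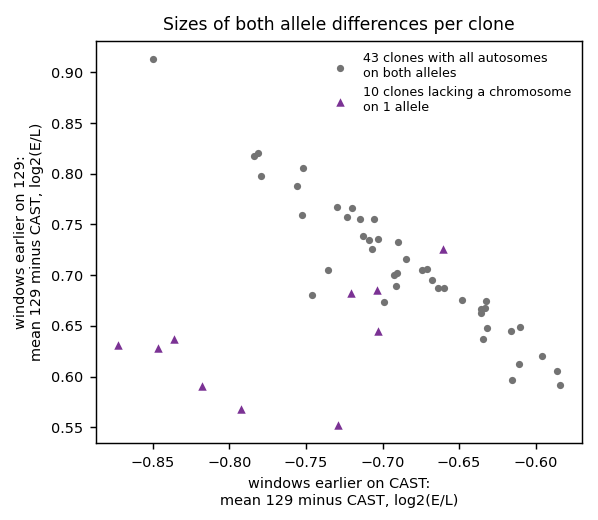
Each point is a clone, placed by its mean difference (musculus-129 minus CAST, log2(E/L)) over the windows earlier on CAST (x axis) and over the windows earlier on musculus-129 (y axis). The 43 clones with all autosomes (grey) fall along a line with r = -0.94, and most of the 10 clones lacking a chromosome on 1 allele (purple triangles) lie below it.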

How the data were processed

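E/L Repli-seq was measured in hybrid mESC clones. Per the labels and the study's methods, the authors trimmed reads with Trim Galore and cutadapt and mapped them by bowtie2 against mm10 with its SNP positions masked. SNPsplit gave the reads to a homolog, Samtools took out duplicates, and bedtools counted reads in windows of 50 kb. The deposited values are log2 ratios of early over late reads per homolog, after scaling, quantile normalization and loess smoothing (300 kb) by the authors. Tool versions are not given in the sources used here. Cells were labelled with 100 µM BrdU for 2 h.

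The table held 138 columns for 66 libraries, all used. Genome 1 is musculus-129 and genome 2 is CAST, as the deletion suffixes of the columns and the genotypes show. Repeat runs of 3 libraries (r from 0.955 to 0.963) were averaged and counted once. A further 5 libraries named in the labels were not analysed here. No 2 columns were identical. Depth is unknown, since only ratios were at hand, so precision rests on how far libraries or clones spread. Values were present in 73.8% to 93.8% of windows.

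For each library the CAST value was subtracted from the musculus-129 value. The members, gene lists and alternatives were chosen with earlier results of these data known. Genes named are up to 3 protein-coding genes (GENCODE vM21) with the most bases in each of the 15 runs with the largest summed difference, and listed genes that start in a member window (the first 5 by difference where a list had more than 10). The most negative window holds no gene. One gene that this rule picked is not reported here. Sqor, Slc30a4, Bloc1s6 and Epb41l3 were named after their values were seen. Differences between clones were tested per window with a moderated F test (limma 3.58.1 in R 4.3.3, squeezeVar) over windows with at least 18 of the 24 libraries and 6 residual degrees of freedom, with Benjamini-Hochberg adjustment over all windows, and the procedure was tested on simulated data. Line and covariation tests permuted clones 100000 times (numpy 2.4.6, pandas 2.3.3, Python 3.11.15). Alternatives covered the threshold (-0.4, -0.6), the number of libraries (30, 60), the average, centring, repeat runs, clones as units, the F test, the replicate number as a block and leaving out single libraries or clones. Those on extreme values (beyond 4) and on clones lacking a chromosome were added after the data were seen. Same-numbered repeats of different clones did not deviate together (median r 0.0029 over 55 pairs of clones, from -0.14 to 0.21), so repeats were not paired.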

Additional observations from a re-analysis of the deposited data

Results flagged for a closer look

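In groups of 4 to 10 libraries of a line, a library far from the others was looked for in 77 groups (the mean over the set and over each of the 15 largest runs), and chance flags about 1 in 20. There were 5 such values, in 4 libraries. CTSS clone C12 replicate 2 had a mean difference over the windows earlier on CAST of -0.81, where the other 3 libraries of the line lay from -0.71 to -0.69. In the Trpc7 run on chromosome 13, CTSS clone C12 replicate 1 was at -1.32 and the others from -0.96 to -0.91. A.COSN123 clone C9 was at -1.09 in the run with Lrrfip1 and Col6a3 on chromosome 1 (others -0.89 to -0.87) and at -0.57 in the run with Erbb4 (others -0.74 to -0.71). In the run on chromosome 16 with Tmprss15, COSN123 clone A10 replicate 4 was at -0.81, where the other 3 libraries of that clone were from -1.16 to -1.11.

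The mean difference over the windows earlier on CAST was flagged by deletion line. Lines held 67.6% of the sum of squares over 53 clones (permutation p = 0.0211). Part of such a share arises by chance with 26 lines, and the chance level was not computed. The share between lines did not pass without the clones that lack a chromosome on 1 homolog (64.2%, permutation p = 0.0957). Nor did it with only lines of 2 or more clones (56.6%, permutation p = 0.0554) or on ranks (60.7%, permutation p = 0.0849). It passed over only the chromosomes with values in every library (70.3%, permutation p = 0.0097), so whether the lines differ depends on the setting.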

How the results depend on the processing

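The count of 1341 windows was 2198 at a threshold of -0.4 and 811 at -0.6, and the 212 runs became 334 and 140. Under the other 8 alternatives it ranged from 1152 (at least 60 libraries) to 1357 (at least 30 libraries), and 93.1% of the windows stayed with each library's median difference subtracted. Leaving out single libraries gave 1322 to 1351 windows, 208 to 217 runs and a mean difference of -0.703 to -0.699, and no alternative moved that mean by as much as 1 SD between libraries. The 56 windows that varied between clones became 23 with a plain F test (1.77%, and 0.666% of all windows), 121 of 1004 where only windows with a value in all 24 libraries were fitted (12.1%, and 3.09% of all windows), 11 at an adjusted p of 0.01, and 12 to 121 when single clones were left out. With the replicate number as a block 50 of 1295 windows passed (0.738% of all windows), and with only the first-numbered library of each clone lines held 67.7% of the sum of squares (permutation p = 0.0213). The share between lines did not pass with only lines of 2 or more clones (56.6%), on ranks (60.7%) or without clones lacking a chromosome (64.2%). It passed over chromosomes with values in every library (70.3%, permutation p = 0.0097). The chance level of these shares was not computed. The correlation between both sets was -0.34 without the 2 farthest clones, -0.38 over libraries, -0.92 with library medians subtracted, -0.94 without clones lacking a chromosome and 0.48 within those clones. The cause of these changes was not tested. Since depth is unknown, differences near the spread between repeats (median SD 0.17) are not resolved in single windows.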
